A study of Caenorhabditis elegans with 4 samples.

Results

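The genes described here encode 10 proteins of the *C. elegans* germ line that write, read or remove methylation of histone H3 at lysine 4 (H3K4) and lysine 36 (H3K36). They were picked by name, for function and not for expression, from the 15286 genes of the deposited table: *mes-4*, *met-1*, *mrg-1*, *set-2*, *set-17*, *spr-5*, *ash-2*, *wdr-5.1*, *rbbp-5* and *cfp-1*. All 10 were present and were tested. Polyadenylated RNA from dissected gonads of adult worms grown at 25 °C was sequenced in 4 libraries, 2 from the wild-type strain N2 and 2 from strain FAS58, of genotype *his-72*(*uge40*[K27M]) III. In the mutant, lysine 27 of the histone variant H3.3 made by *his-72* is replaced with methionine and the labels list no other allele. The mutant libraries carry another strain number in their titles, so their identity rests on the strain and genotype labels and on the column names. FAS58 is a single strain with a single allele, and the number of gonads per library was not given in the sources used here.

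H3K4 methylation marks the start of active genes, and H3K36 methylation covers the bodies of transcribed genes. In the worm germ line these marks lie mainly on the autosomes, whereas the X chromosome is rich in the repressive mark H3K27me3, made by the Polycomb repressive complex 2 (PRC2). MES-4 and PRC2 are known to oppose each other across this boundary, and loss of the H3K4 methyltransferase SET-2 or of the demethylase SPR-5 makes worms progressively less fertile over generations. The H3.3K27M protein is known to inhibit PRC2. The values below compare the transcripts of the H3K4 and H3K36 machinery between mutant and wild-type gonads.

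None of the 10 genes was called as changed, and for each of them a 2-fold difference lay outside the 95% interval. The log2 fold changes of mutant over wild type ran from -0.20 for *wdr-5.1* to 0.35 for *rbbp-5*, and 9 of the 10 were above 0. Of these, *met-1*, *mrg-1* and *cfp-1* changed sign with some library left out, and the share of tested genes above 0 was not computed. The intervals together reached from 0.649-fold to 1.73-fold. A gene was called where it differed more than 2-fold with an adjusted *p* under 0.05. The adjusted *p* values lay between 0.289 and 0.95 (edgeR's quasi-likelihood test, Benjamini-Hochberg adjustment over the 15261 tested genes). The count of 0 called genes was the same with DESeq2, and the count at an unadjusted *p* under 0.05 was 0 with either tool, against 24.7% of all tested genes in edgeR. That share covers genes at all levels and was not taken for genes at the level of these 10. Of all tested genes 5.89% were called, 4.43% as higher and 1.46% as lower.

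These sizes are typical of genes at the same level. The 10 genes had between 1167 and 10363 counts per library and ranked between the 77.4th and the 96.0th percentile of wild-type levels. Within their range of mean level, 48.8 to 314.3 CPM (counts scaled to library size with TMM factors, trimmed means that offset differences in composition), 2657 genes were tested, of which 4.82% were called. The median absolute log2 fold change was 0.17 for the 10 genes and 0.20 for the genes in that range, against 0.72 for all tested genes. The signed medians were 0.10, 0.00159 and -0.11. An interval inside a 2-fold change either way was found for 10 of the 10 genes, for 82.5% of the genes in that range and for 27% of all tested genes.

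**Figure D1:**
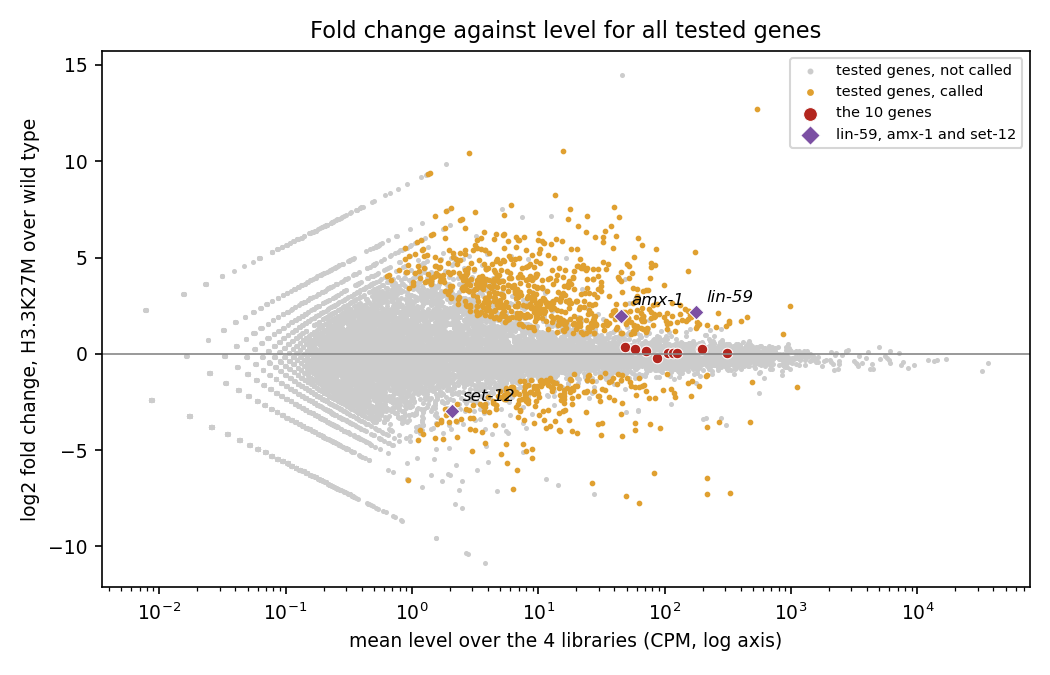
Log2 fold change of H3.3K27M over wild-type gonads against the mean level in CPM over the 4 libraries (log axis), 1 point per tested gene, with the 10 genes in red, called genes in orange and *lin-59*, *amx-1* and *set-12* as diamonds. The 10 genes lie between -0.20 and 0.35, within the dense band of genes at their level, while *lin-59* and *amx-1* stand above it and *set-12* below.

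The libraries held between 28298609 and 32957429 counts on genes, and replicates of a strain differed by more than sampling noise. The 6 germline marker genes summed to between 3251 and 4023 CPM in each library, and none of them was called. The 6 oocyte markers summed to 21692 and 18733 CPM in the wild-type libraries and to 17473 and 12903 CPM in the mutant, without overlap, and 0 of them were called. Markers of other tissues differed between the strains. Intestine markers (5 of 6 tested, 2 called lower) summed to 201.8 and 1974 CPM in the wild-type libraries and to 10.8 and 13.1 CPM in the mutant. Neuron markers (6 of 6 tested, 1 called higher) went from 15.2 and 8.12 CPM to 63.6 and 54.8 CPM, and sperm markers (6 of 6 tested, 1 called higher, 3 of them at 0 in a library) from 6.18 and 4.88 CPM to 17.9 and 53.8 CPM. Somatic gonad, body wall muscle and hypodermis markers had no called gene. The part of these tissues in the values below was not tested, and in bulk gonads a smaller share of a cell type and less RNA per cell cannot be told apart. *his-72* itself was at 64.2 and 81.8 CPM in wild type and at 50.3 and 60.4 CPM in the mutant (log2 fold change -0.40, edgeR quasi-likelihood adjusted *p* = 0.281). The allele changes the protein sequence, so this level does not check the labels.

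The H3K36 genes come first. MES-4 is a methyltransferase that maintains H3K36 methylation on genes expressed in the germ line and passes it on to the embryo. Its gene (WBGene00003222, chromosome V, 13433050 to 13437545, minus strand, WBcel235) was at 173.3 and 181.1 CPM in wild-type replicates 1 and 2, and at 210.0 and 215.9 CPM in mutant replicates 1 and 2. Both mutant libraries were above both wild-type libraries, and the mutant mean was 20.2% above the wild-type mean. The log2 fold change of 0.26 (standard error 0.16) had an interval from -0.13 to 0.66 and an adjusted *p* of 0.356 (edgeR's quasi-likelihood test, Benjamini-Hochberg). Leaving out any library kept it between 0.24 and 0.34.

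MET-1 deposits H3K36 methylation during transcription elongation. *met-1* (WBGene00016603, chromosome I, 4254197 to 4264699, plus strand) had the most counts of the 10 genes, which also reflects its length, at 327.0 and 289.1 CPM in wild type and 317.3 and 323.6 CPM in the mutant. The mutant values fell between the wild-type ones, and the interval of the log2 fold change ran from -0.36 to 0.48. MRG-1, a chromodomain protein related to mammalian MRG15, binds chromatin that carries H3K36 methylation. *mrg-1* (WBGene00003406, chromosome III, 12871029 to 12874656, minus strand) was at 90.9 and 118.97 CPM in wild type and at 119.2 and 97.5 CPM in the mutant. Its replicates lay further apart than those of any other of the 10 genes, by 0.39 on the log2 scale in wild type, and its fold change of 0.05 turned to -0.10 without wild-type replicate 1 and to -0.05 without mutant replicate 1.

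SET-2 is the catalytic subunit of the worm COMPASS complex, which is responsible for most H3K4 trimethylation, and ASH-2, WDR-5.1, RBBP-5 and CFP-1 are its partners. *set-2* (WBGene00004782, chromosome III, 4922427 to 4930204, minus strand) was at 190.4 and 173.8 CPM in wild type and at 199.8 and 226.5 CPM in the mutant. The groups did not overlap, but the gap between the nearest libraries was smaller than the distance between the replicates of either strain. The log2 fold change was 0.23, with an interval from -0.19 to 0.65 and an adjusted *p* of 0.448 (edgeR's quasi-likelihood test, Benjamini-Hochberg). Leaving out any library gave 0.13 to 0.37.

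None of the core subunits passed the test. *rbbp-5* (WBGene00017683, chromosome II, 6097830 to 6099645, plus strand), which encodes a WD-repeat subunit, had the fewest counts of the 10 genes and the highest fold change. Its level was 39.8 and 46.1 CPM in wild type and 56.9 and 52.4 CPM in the mutant, without overlap. The log2 fold change of 0.35 (standard error 0.18) had an interval from -0.09 to 0.79 and an adjusted *p* of 0.289 (edgeR's quasi-likelihood test, Benjamini-Hochberg), and without wild-type replicate 2 the interval reached 1.12, beyond a 2-fold rise.

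*wdr-5.1* (WBGene00006474, chromosome III, 3705285 to 3706784, plus strand), encoding the WD-repeat protein that anchors the catalytic subunit to the core, was the only gene of the 10 with a fold change below 0. It was at 91.9 and 95.1 CPM in wild type and at 87.1 and 75.1 CPM in the mutant. The groups did not overlap, but the mutant libraries lay further apart than the nearest libraries of the strains did. The log2 fold change of -0.20 (interval -0.62 to 0.22) had an adjusted *p* of 0.493 (edgeR's quasi-likelihood test, Benjamini-Hochberg) and stayed between -0.26 and -0.10 whichever library was omitted.

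*ash-2* (WBGene00012458, chromosome II, 11979838 to 11989050, plus strand), whose product stimulates the catalytic subunit, was at 66.4 and 68.7 CPM in wild type and at 81.8 and 66.8 CPM in the mutant. Only mutant replicate 1 stood above wild type, and the interval ran from -0.31 to 0.58 on the log2 scale. CFP-1 is the CXXC zinc finger subunit that recruits the complex to promoters. *cfp-1* (WBGene00009924, chromosome IV, 14077435 to 14083568, plus strand) was at 119.3 and 110.6 CPM in wild type and at 117.8 and 115.3 CPM in the mutant, whose values again fell between the wild-type ones. Its log2 fold change of 0.02 was the smallest of the 10.

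Outside COMPASS, SET-17 is a PR/SET domain methyltransferase that contributes H3K4 monomethylation and dimethylation in germ cells. *set-17* (WBGene00011887, chromosome II, 8939054 to 8940488, minus strand) was at 51.5 and 54.6 CPM in wild type and at 65.1 and 61.0 CPM in the mutant. Both mutant libraries were higher, with a log2 fold change of 0.25 (standard error 0.17, interval -0.16 to 0.66, edgeR quasi-likelihood adjusted *p* = 0.397). SPR-5 is the worm homolog of the demethylase LSD1 and removes H3K4 dimethylation between generations. *spr-5* (WBGene00005010, chromosome I, 13438058 to 13450218, plus strand) was at 126.1 and 123.8 CPM in wild type and at 125.4 and 129.1 CPM in the mutant. The groups overlapped, and the interval of its log2 fold change, -0.37 to 0.42, was centered near 0.

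In all, 4 of the 10 genes were higher (*mes-4*, *set-2*, *set-17* and *rbbp-5*) and 1 was lower (*wdr-5.1*) in the mutant without overlap of replicates. Among all tested genes, 24.1% were higher and 32.7% were lower without overlap, so with 2 libraries against 2 such separation was common. In the 4 higher genes, and in none of the other 6, the fold change exceeded the larger of the 2 distances between replicates on the log2 scale. The share of all tested genes that did so was not computed, so this count does not set the 4 genes apart.

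**Figure D2:**
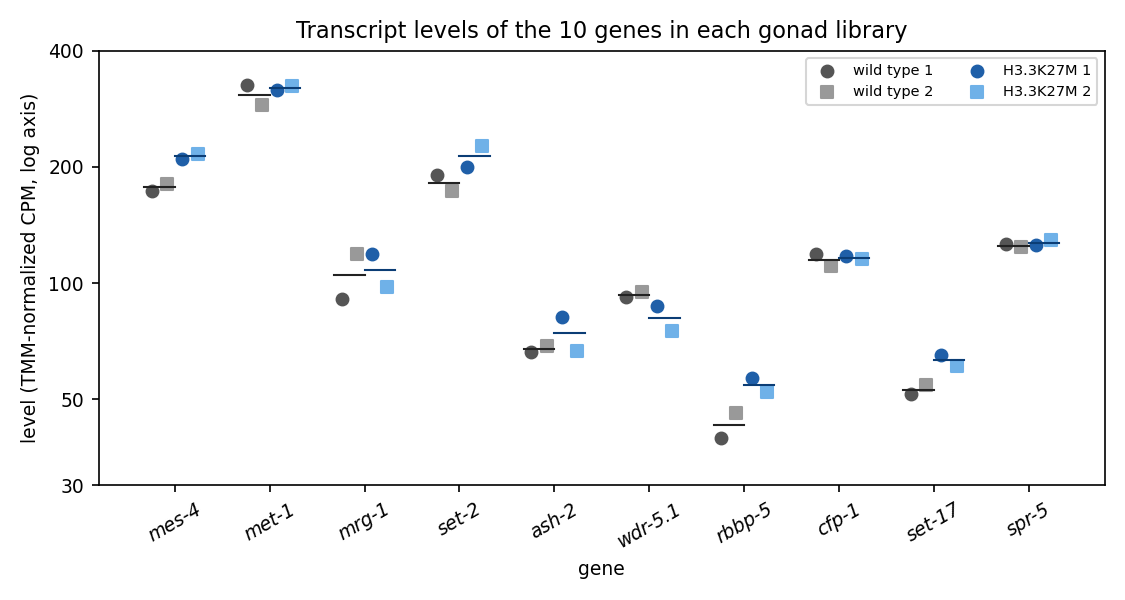
TMM-normalized CPM (log axis) of each of the 10 genes in the 2 wild-type (grey) and 2 H3.3K27M (blue) libraries, with bars at the group means. The values span 39.8 CPM (*rbbp-5*) to 327.0 CPM (*met-1*), without correction for gene length, and the strains separate without overlap in *mes-4*, *set-2*, *wdr-5.1*, *rbbp-5* and *set-17*.

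Levels can be compared between genes only per length, here as CPM per kilobase of annotated exon. In wild type the order was *wdr-5.1* at 69.8 ± 1.67, *mrg-1* at 69.7 ± 13.2, *mes-4* at 56.8 ± 1.78, *cfp-1* at 55.1 ± 2.95, *met-1* at 54.8 ± 4.76 and *set-17* at 53.9 ± 2.16 CPM per kilobase (SD, n = 2 each). Each of these overlapped its neighbor in the order over the 4 libraries. Below them stood *spr-5* at 47.9 ± 0.615, which overlapped neither neighbor, then *set-2* at 33.3 ± 2.15 and *rbbp-5* at 30.1 ± 3.11, which overlapped each other, and *ash-2* at 22.4 ± 0.551 CPM per kilobase (SD, n = 2 each). *ash-2* was lowest in both strains, at 24.6 ± 3.52 CPM per kilobase in the mutant, where *mrg-1* led with 72 ± 10.2 and *wdr-5.1* was behind *mes-4* and *set-17* with 60.5 ± 6.35 (SD, n = 2 each).

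Ratios taken within a library do not depend on how libraries are scaled to each other. The ratio of *rbbp-5* to *wdr-5.1* per kilobase was 0.407 and 0.455 in the wild-type libraries and 0.613 and 0.654 in the mutant libraries, without overlap, which is the largest shift of the 45 possible pairs (0.56 on the log2 scale) and joins the genes with the highest and the lowest fold change. The ratio of *ash-2* to *wdr-5.1* was 0.321 in each wild-type library and 0.417 and 0.395 in the mutant. All 9 pairs with *wdr-5.1* separated the strains, with relatively less *wdr-5.1* in the mutant. That direction was already given, because *wdr-5.1* was the only one of these genes with a lower mean in the mutant. These 9 share the *wdr-5.1* values, so they are not separate observations. In one direction or the other 24 of the 45 pairs separated the strains, the 9 included. The share among pairs of other genes was not computed, so these counts are not a result about these genes. *set-2* reached 0.507 and 0.447 of the *wdr-5.1* level in the wild-type libraries, against 0.561 and 0.738 for the mutant. The ratio of *met-1* to *mes-4* was 1.05 and 0.886 for wild type, against 0.839 and 0.832 for the mutant. These ratios were not tested.

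**Figure D3:**
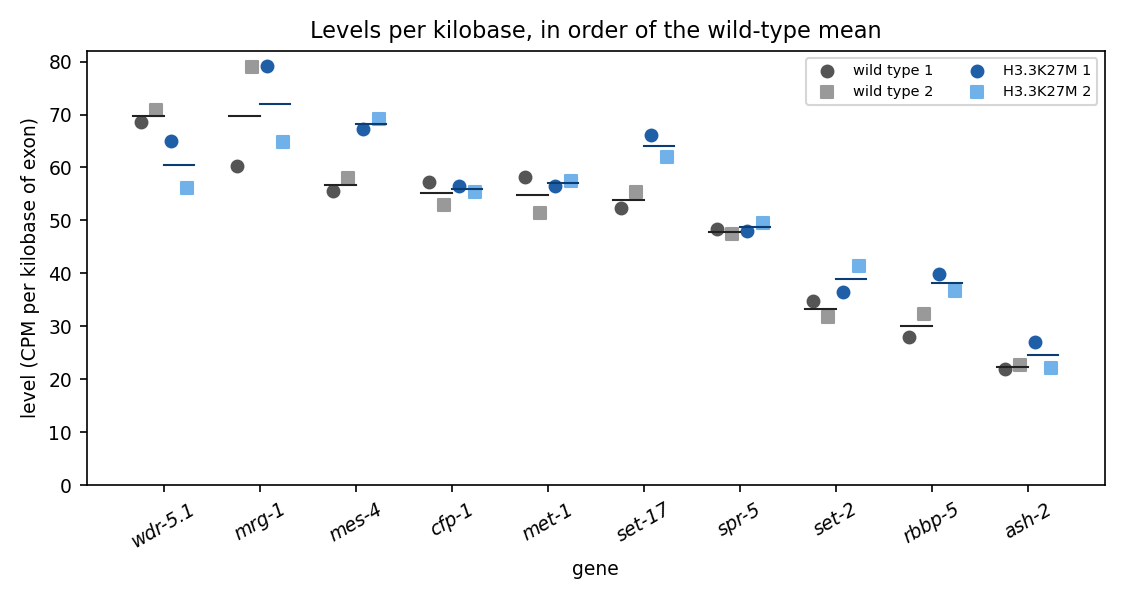
CPM per kilobase of exon of the 10 genes in each library, in order of the wild-type mean, with bars at the group means. *wdr-5.1* and *mrg-1* lead in wild type at about equal means, and *ash-2* is lowest in both strains, with means of 22.4 (wild type) and 24.6 (mutant).

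The 10 genes all lie on autosomes (chromosomes I to V). *mes-4*, *met-1*, *mrg-1*, *set-2*, *set-17* and *wdr-5.1* overlap no other annotated gene, and the noncoding gene within *spr-5* shares no exon base with it. Exons of *ash-2* share 27 bases with Y17G7B.3 on the same strand and 7 with Y17G7B.20 on the other, *cfp-1* shares 1 base with F52B11.2, and *rbbp-5* shares 45 with the antisense RNA gene *anr-22*. How the authors' counting used strand is not given in the sources used here, so reads in these stretches cannot be assigned.

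Other genes of the same pathways were read from the same fit. These comprised 12 further H3K4 methylation genes, 5 further H3K4 demethylation genes, 4 further H3K36 methylation and demethylation genes and 4 genes of the SIN3 deacetylase complex, which associates with CFP-1. Of these 25 genes 2 were called higher, 0 lower and 23 not called, beside 4.43% higher and 1.46% lower among all tested genes. Their median log2 fold change was 0.17, against -0.11 over all tested genes and 0.00159 for the genes between 48.8 and 314.3 CPM. That range was not drawn for the 25 genes, some of which lie outside it, so no comparison at their own levels was made. At an unadjusted *p* under 0.05 there were 8 of the 25, beside 3772 of the 15261 tested genes.

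The called genes were *lin-59* and *amx-1*. *lin-59*, the worm homolog of the Trithorax group gene ASH1 (WBGene00003040, chromosome I, 3713449 to 3721157), was at 77.2 and 52.4 CPM in wild type and at 281.9 and 294.9 CPM in the mutant. Both mutant libraries were far above both wild-type libraries. The means differed 4.45-fold, or by 2.15 ± 0.23 (standard error) on the log2 scale, with an edgeR quasi-likelihood adjusted *p* of 0.00696 (Benjamini-Hochberg). *amx-1* (WBGene00000137, chromosome III, 3822403 to 3826260) encodes another homolog of the LSD family of demethylases. It was at 14.8 and 22.0 CPM in wild type and at 69.8 and 74.4 CPM in the mutant. The log2 difference was 1.97 ± 0.24 (standard error), with an edgeR adjusted *p* of 0.00946. With any library left out, *lin-59* stayed between 1.90 and 2.50 and *amx-1* between 1.75 and 2.28, but neither was called, with adjusted *p* values from 0.0587 to 0.157 and from 0.0854 to 0.157 in edgeR. The summed neuron markers were higher in the same libraries, at 54.8 to 63.6 CPM against 8.12 to 15.2 CPM for 6 genes, and the part of that tissue in the rise was not tested.

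No other gene on these lists was called by edgeR's quasi-likelihood test. *set-12*, an X-linked relative of the H3K36 methyltransferase genes, was covered by 78 and 136 counts (2.66 and 4.74 CPM) in the wild-type libraries, against 8 and 22 counts (0.245 and 0.693 CPM) in the mutant. Its log2 fold change of -2.98 had an adjusted *p* of 0.0639 with edgeR's quasi-likelihood test, and it passed with DESeq2 (adjusted *p* = 0.00341) and with the classic exact test of edgeR (0.0122). Leaving out a library moved it to between -2.35 (without mutant replicate 1) and -3.89 (without mutant replicate 2), with edgeR adjusted *p* values of 0.158 to 0.451. *utx-1*, an X-linked H3K27 demethylase gene whose product joins the SET-16 complex, had the highest fold change of the further H3K4 methylation genes and was at 27.4 and 28.5 CPM in wild type and at 43.0 and 56.9 CPM in the mutant (log2 fold change 0.84, edgeR quasi-likelihood adjusted *p* = 0.0788). DESeq2 and the exact test gave it adjusted *p* values of 0.00743 and 0.0454, with fold changes under the 2-fold limit. *lsd-1*, an X-linked paralog of *spr-5*, was at 20.4 and 29.9 CPM against 33.7 and 54.4 CPM (log2 fold change 0.81, edgeR adjusted *p* = 0.176). The X-linked *wdr-5.1* paralog *wdr-5.2* was close to the detection limit, at 27 and 28 counts against 14 and 8 counts, whereas the other paralog, *wdr-5.3*, was at 120.9 and 121.6 CPM and at 150.3 and 143.4 CPM. Reads that match several paralogs were not examined.

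Among the other COMPASS subunits, *dpy-30* had the lowest fold change of the genes with at least 1 CPM, at 47.9 and 57.1 CPM in wild type and 42.9 and 43.7 CPM in the mutant (log2 fold change -0.28, interval -0.72 to 0.17). *set-16*, the MLL-type methyltransferase gene, was at 445.1 and 356.8 CPM in wild type and at 454.0 and 453.9 CPM in the mutant. *sin-3*, the scaffold of its complex, was at 337.9 and 288.8 CPM in wild type and at 402.6 and 488.5 CPM in the mutant (log2 fold change 0.51, edgeR quasi-likelihood adjusted *p* = 0.183). *set-9* and *set-26*, near-identical genes for readers of H3K4 methylation, were singled out after their values were seen. Their log2 fold changes were 0.50 and 0.83, with adjusted *p* values of 0.139 and 0.103 in edgeR's quasi-likelihood test. DESeq2 gave adjusted *p* values of 0.0311 and 0.02, and the fold changes were below the 2-fold limit in both tests. Reads that match both genes were not examined, so their rises may not be separate.

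**Figure D4:**
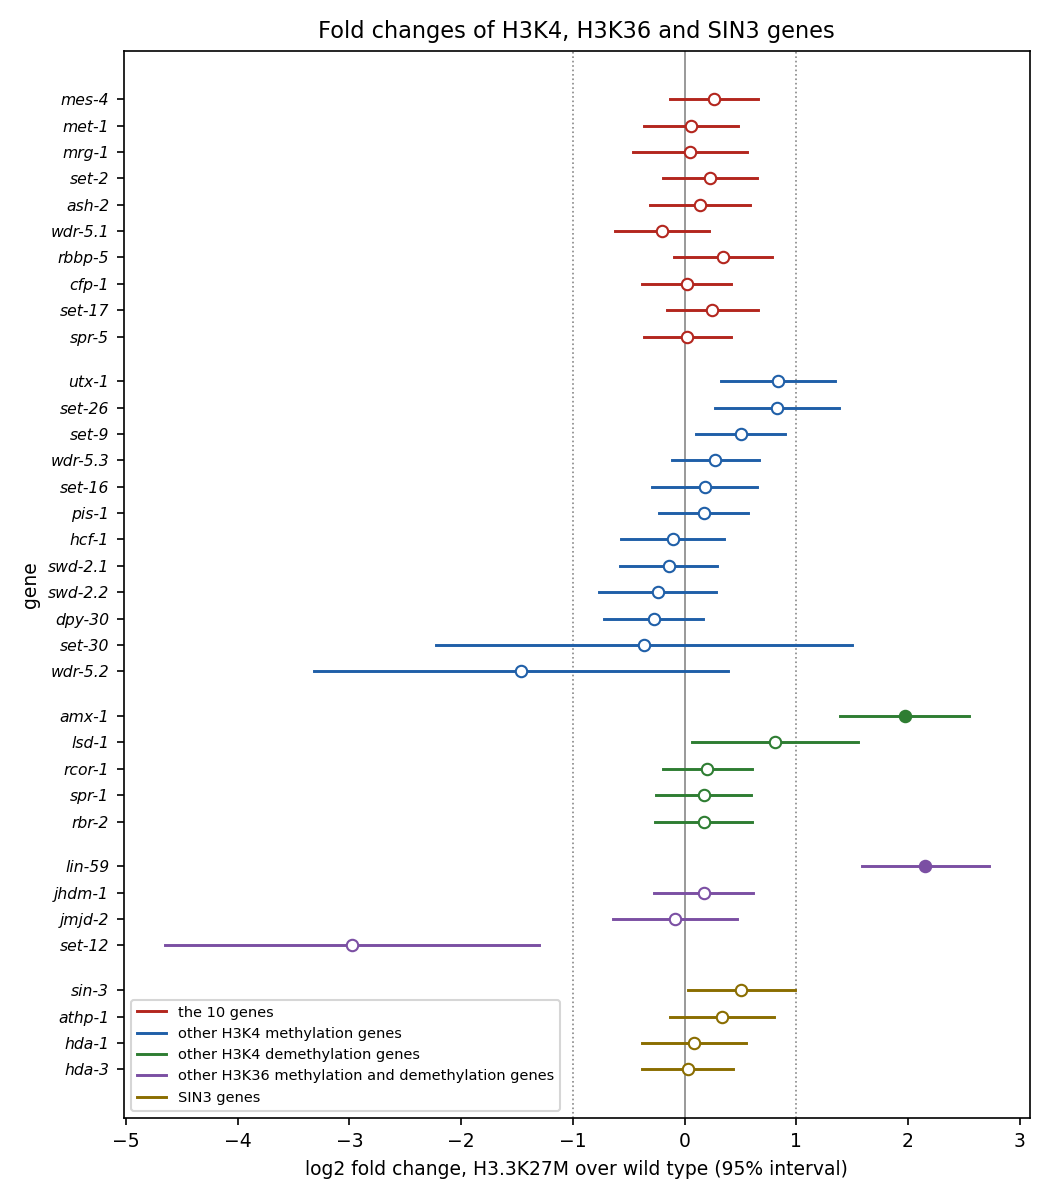
Log2 fold changes of H3.3K27M over wild type with 95% intervals for the 10 genes and for the 25 other H3K4, H3K36 and SIN3 genes, with filled circles for called genes and dotted lines at a 2-fold change. All 10 intervals in the top group lie inside the dotted lines, and the filled circles are *amx-1* at 1.97 and *lin-59* at 2.15.

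None of the 3 genes of PRC2, which MES-4 opposes, was called. Their largest rise and their fall were slightly larger in size than the 0.35 of *rbbp-5*, the largest of the 10 genes. *mes-2*, the gene of the catalytic subunit, was at 63.3 and 75 CPM in wild type and at 95.1 and 83.2 CPM in the mutant (log2 fold change 0.37). *mes-6*, encoding the ESC homolog, was at 660.0 and 426.9 CPM in wild type and at 458.4 and 376.5 CPM in the mutant (log2 fold change -0.38, interval -1.01 to 0.25, which reached past a 2-fold fall). Neither passed the threshold of edgeR's quasi-likelihood test (adjusted *p* = 0.272 and 0.399). *mes-6* shares 380 exon bases with the overlapping gene C09G4.4 on the same strand, so its level is uncertain.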

How the data were processed

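RNA was isolated from dissected gonads, made into stranded libraries and read at 50 bases per the methods. The labels' extraction field speaks of embryos and larvae, their growth field of gonads. The authors mapped reads with TopHat 2.0.13 to WBcel235, and the submitters' processing notes also name HTSeq 0.6.1 and edgeR 3.10.5. The authors deposited whole-number counts per gene, which were used here. Their normalized counts (a library-scaled signal), log2 fold changes, average log2 CPM and p-values were also deposited and were not used.

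Counts of the 15261 genes with at least 1 count were scaled by TMM and fitted with strain as the only term (edgeR 4.0.16, glmQLFit with legacy = FALSE and glmQLFTest, R 4.3.3). Standard errors are the absolute log2 fold change over the square root of F, and 95% intervals use the total degrees of freedom of the fit. Positions and exon lengths came from Ensembl release 115, which held 15159 of the genes. The fits to all 4 libraries were tested on simulated counts with known changes, and the fits with a library left out were not. p-values, standard errors and intervals rest on the spread between 2 libraries per strain, called biological replicates in the methods. The fit moderates the spread of each gene toward a trend over all tested genes, so these values do not measure a gene's own spread alone. For *mes-4* the replicates differed by 0.06 and 0.04 on the log2 scale, yet the standard error was 0.16. At these depths of 28298609 to 32957429 counts precision is limited by the spread between libraries. All 4 raw-count columns were matched to a sample.

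The genes, the pathway lists and the marker lists were chosen with earlier results of these data known. Named in the text are the 10 genes, *his-72*, called genes of the pathway lists, the largest rise and, where any fold change was below 0, the largest fall of each list above 1 CPM, and paralogs. Ranges over other fits used RLE factors, filterByExpr, DESeq2 1.42.0, legacy quasi-likelihood, the classic exact test, a replicate block and leaving out each library.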

Additional observations from a re-analysis of the deposited data

How the results depend on the processing

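None of the 10 genes was called under RLE factors, filterByExpr, DESeq2, the legacy method, edgeR's exact test, the adjusted p alone, a replicate block or with any library left out. Their lowest adjusted p in any of these fits was 0.203, for *rbbp-5*. The number of 10 intervals inside a 2-fold change, an alternative added after the data were seen, was 10 in each fit that gives intervals except without wild-type replicate 2, where it was 9. Over all genes the count of 899 calls became 1750 with DESeq2, 1596 with the classic exact test, 463 with a replicate block and between 0 and 118 with a library left out, where the lone library is assumed to vary like the other strain. The counts of 0 came without wild-type replicate 2 and without mutant replicate 1, which left 1704 and 3769 genes at an unadjusted p under 0.05. The 2 called pathway genes became 0 with any library left out, with 4 to 6 of the 25 at an unadjusted p under 0.05. The titles number the replicates alike, but same-numbered libraries did not deviate together (correlation -0.0857 across 9237 genes), and the replicate block changed no call among the 10 or the 25 genes. Fold changes of *met-1*, *mrg-1* and *cfp-1* changed sign with some library left out, reaching -0.03, -0.10 and -0.03. With the longest transcript as length, *ash-2* was at 23.0 CPM per kilobase in wild type in place of 22.4. It remained lowest, but its range over the libraries then overlapped that of *rbbp-5*. In that order *mrg-1* stood before *wdr-5.1*, and *met-1* stood before *mes-4* and *cfp-1*.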
